A study of Mus musculus with 6 samples.

Results

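G1 cyclins, their kinases and the inhibitors of those kinases were described as a set of 10 genes in proB cells (early B-lymphocyte progenitors) sorted from mouse bone marrow. The genes were chosen by name (Ccnd1, Ccnd2, Ccnd3, Ccne1, Ccne2, Cdk4, Cdk6, Cdkn1a, Cdkn1b and Cdkn2c), each represented by its transcript with the highest mean value, and all 10 were found among the 22098 gene symbols measured. All 10 also reached the mean of 1 RPKM (reads normalised to transcript length and to library size) that was asked of the 10943 genes compared. The mice were of strain C57BL/6 and 6 to 7 weeks old, and were wild type (wt), Ikaros_ZnF1-/- (the ZnF1 mutant) or Ikaros_ZnF4-/- (the ZnF4 mutant), which carry a mutation in zinc finger 1 or in zinc finger 4 of the Ikaros DNA-binding domain. From each genotype RNA of Hardy fraction B and of C+C' (fraction C from here on) was sequenced without any treatment, which gave 6 libraries, 1 per genotype and fraction. A difference between a pair of libraries therefore has no replicate check, and the number of animals behind a library is not given in the sources used here. The read depth is unknown too, and 10342 to 10947 genes per library reached 1 RPKM. The comparison addresses what each of these fingers contributes to Ikaros, a transcription factor of lymphocytes.

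Cells leave G1 when D-type cyclins, joined to Cdk4 or Cdk6, and then E-type cyclins, joined to Cdk2, phosphorylate the retinoblastoma proteins and free E2F factors to switch on genes of DNA replication. Inhibitors of the Ink4 family, such as the Cdkn2c product p18, bind Cdk4 and Cdk6, while those of the Cip/Kip family, the Cdkn1a product p21 and the Cdkn1b product p27, act on cyclin-CDK complexes. In developing B cells cyclin D2 and cyclin D3 are the main D-type cyclins, proB cells divide in response to IL-7, and cyclin D3 is known for its part in the expansion that follows the first heavy chain rearrangement.

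Pax5, a B-lineage marker, was between 91.9 and 306.6 RPKM in every library, and Igll1, part of the surrogate light chain of early B cells, between 475.5 and 1396.2. The ZnF1 library of fraction C stood apart: 15 granulocyte and monocyte markers summed to 43723.5 RPKM there, against 1036.0 to 3887.9 in the other libraries, and 10 erythroid markers to 1451.1 against 24.0 to 123.0. Markers of several other cell types were lower in the ZnF4 libraries. In fraction B 15 of 15 granulocyte and monocyte markers and 10 of 10 erythroid ones were at least 2-fold below wt. So were 9 of 9 natural killer cell markers, against 9.81% of all genes. In fraction C 3, 2 and 8 of them were, against 6.12%. T-lineage markers went both ways in ZnF4, with 3 of 8 higher and 5 lower in each fraction. In the ZnF1 library of fraction B 15 of 15 granulocyte and monocyte and 10 of 10 erythroid markers were also lower than wt. At least 2-fold lower were 7 and 4 of them, against 2.21% of all genes. The natural killer markers summed to 101.5 RPKM in wt, 63.4 in ZnF1 and 2.6 in ZnF4 in fraction B, and in fraction C the sums were 52.7, 121.9 and 9.7. The B-lineage reference genes of the ZnF1 library of fraction C stood at a median of 0.633 times wt. In the ZnF4 libraries that median was 1.43 times wt (fraction B) and 1.48 times (fraction C), and in the ZnF1 library of fraction B it was 1.19. Genotype also went with sex, since Xist was at 81.3 and 91.9 RPKM in the wt libraries and listed at 0 in the mutant ones, whereas the Y-linked gene Ddx3y was listed at 0 in wt and at 11.9 to 15.0 RPKM in the mutants. The part of these differences in the results below was not tested, except where a value on the B-lineage scale (each library divided by its median ratio over B-lineage reference genes to wt of its fraction or, for steps, to fraction B of its genotype) is given. In such bulk samples fewer cells of a type and less RNA per cell cannot be told apart. Ikzf1 itself was measured at 150.3 to 181.5 RPKM in wt and ZnF1 libraries and at 431.6 and 425.1 in the ZnF4 libraries, values per transcript that do not show the altered finger.

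On the scale per transcript length, Ccnd3 and Cdk4 were the most abundant members, with means over the 6 libraries of 198.0 and 173.0 RPKM. They lay above 98.9% and 98.6% of the genes compared. Cdkn2c (50.6), Cdkn1b (47.7) and Ccnd2 (39.9) followed, then Ccne1 (26.6), Cdkn1a (26.4), Ccne2 (21.7) and Cdk6 (20.6). Ccnd1 was last at 4.27 RPKM. This order counts 1 transcript per gene, and a second Ccne2 transcript, with a mean of 10.9 RPKM, is left out of it. The ranges of neighbours in this order overlapped, with 2 exceptions: the lowest Ccnd3 and Cdk4 values (106.4 and 124.9) exceeded the highest of every other member, and Ccnd1 at its highest (9.6) stayed below the lowest Cdk6 value (14.6). On the log2 scale the widest range over the libraries was that of Cdkn1a, from 6.9 to 58.1 RPKM, and the narrowest that of Cdkn1b, from 38.4 to 59.2.

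**Figure D1:**
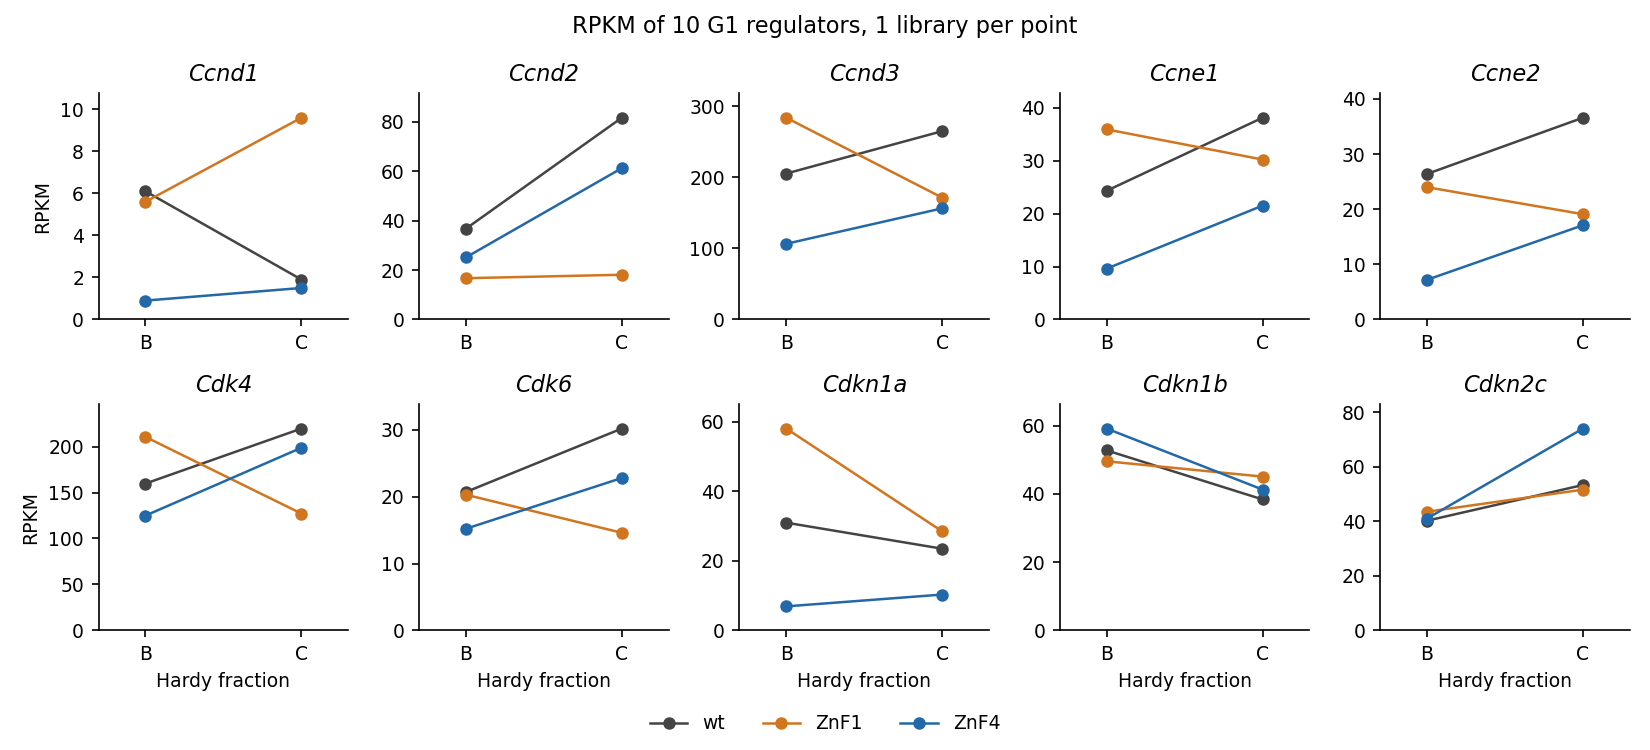
RPKM (vertical axis, linear, from 0) of each member in Hardy fractions B and C (horizontal axis), with 1 point per library and a line joining the fractions of a genotype. In each fraction Ccnd2 lies lowest in ZnF1 (16.7 and 18.1), and Ccne1, Ccne2, Ccnd3 and Cdkn1a lie lowest in ZnF4.

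Ccnd2, which encodes cyclin D2, was at 36.7 RPKM in wt, 16.7 in ZnF1 and 25.1 in ZnF4 in fraction B, followed by 81.6, 18.1 and 61.2 for fraction C. Both ZnF1 libraries were thus below all 4 others. On the log2(RPKM + 1) scale, which is used for every fold below and makes changes of weakly expressed genes look smaller, the ZnF1 library was 2.13-fold lower than wt in fraction B and 4.32-fold lower in fraction C. In fraction B 1.57% of genes were further below wt, and in fraction C 0.448%. On the B-lineage scale Ccnd2 remained lower in ZnF1, by a log2 difference of -1.33 in fraction B and -1.48 in fraction C. In the ZnF4 mutant Ccnd2 was 1.44-fold and 1.33-fold lower than wt. Its wt step from fraction B to C was 2.19-fold upward, and the ZnF4 step 2.38-fold upward, while in ZnF1 the fractions were 1.08-fold apart. On the B-lineage scale the ZnF1 step was a log2 difference of 1.24, beside 1.18 in wt and 1.43 in ZnF4.

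Ccnd3, which encodes cyclin D3, was at 205.2 RPKM in wt, 283.7 in ZnF1 and 106.4 in ZnF4 in fraction B, followed by 264.8, 171.3 and 156.3 for fraction C. The ZnF4 library was lowest in each fraction, 1.92-fold below wt in fraction B and 1.69-fold in fraction C. The ZnF1 library was 1.38-fold above wt in fraction B and 1.54-fold below it in fraction C, and on the B-lineage scale the latter difference was 0.03 (log2). The table lists 3 Ccnd3 transcripts. The one used, NM_001081635, held nearly all of the signal, and NM_007632 and NM_001081636 were between 1.8 and 9.4 RPKM in every library. How reads shared by these transcripts were divided is not given in the sources used here.

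Ccnd1, which encodes cyclin D1, was low throughout, at 6.1 RPKM in wt, 5.6 in ZnF1 and 0.9 in ZnF4 in fraction B, followed by 1.9, 9.6 and 1.5 for fraction C. The ZnF4 library was 3.74-fold below wt in fraction B, and the ZnF1 library 3.66-fold above it in fraction C. From fraction B to C in wt Ccnd1 was 2.45-fold lower, a distance that 0.484% of genes reached in either direction. Its levels ran beside those of Siglech, a defining lectin of plasmacytoid dendritic cells, which was at 24.2, 20.2 and 0.1 RPKM (wt, ZnF1, ZnF4) in B, then 7.5, 33.0 and 0.1 in C. The 9 plasmacytoid dendritic markers summed to 414.7, 504.7 and 368.3 RPKM in fraction B, followed by 153.6, 349.9 and 216.3 for fraction C, none of them being listed at 0. A large part of these sums was 1 marker, Ly6d, at 233.7, 264.0 and 277.4 RPKM in fraction B. In fraction C Ly6d was at 46.7, 91.2 and 143.4 RPKM. The sums therefore do not show how most of the 9 differed. In ZnF4 in fraction B 6 of the 9 were at least 2-fold below wt, against 9.81% of all genes, and 1, Tlr9, was 3.59-fold above it, against 3.7% that were at least 2-fold higher. In fraction C 4 were at least 2-fold below wt in ZnF4, against 6.12%. Another 2, Tlr9 and Ly6d, were at least 2-fold above it there, against 3.55%. The pairing with Siglech was chosen after its values were seen. Their part in the Ccnd1 values was not tested.

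The shares of the D-type cyclins do not depend on how libraries are scaled. Ccnd3 made up 82.7% of the summed D-type cyclin RPKM in wt, 92.7% in ZnF1 and 80.4% in ZnF4 in fraction B, followed by 76.0%, 86.1% and 71.4% for fraction C. Ccnd2 made up 14.8%, 5.46% and 19.0% in fraction B, followed by 23.4%, 9.1% and 27.9% for fraction C. The ratio of Ccnd3 to Ccnd2 was accordingly 17.0 and 9.46 in the ZnF1 libraries (fractions B and C), against 5.59 and 3.25 in wt and 4.24 and 2.55 in ZnF4. The highest of the other 4 libraries stayed below both ZnF1 libraries. Summed over the family, D-type cyclin RNA was 248.0, 306.0 and 132.4 RPKM in fraction B, followed by 348.3, 199.0 and 219.0 for fraction C.

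**Figure D2:**
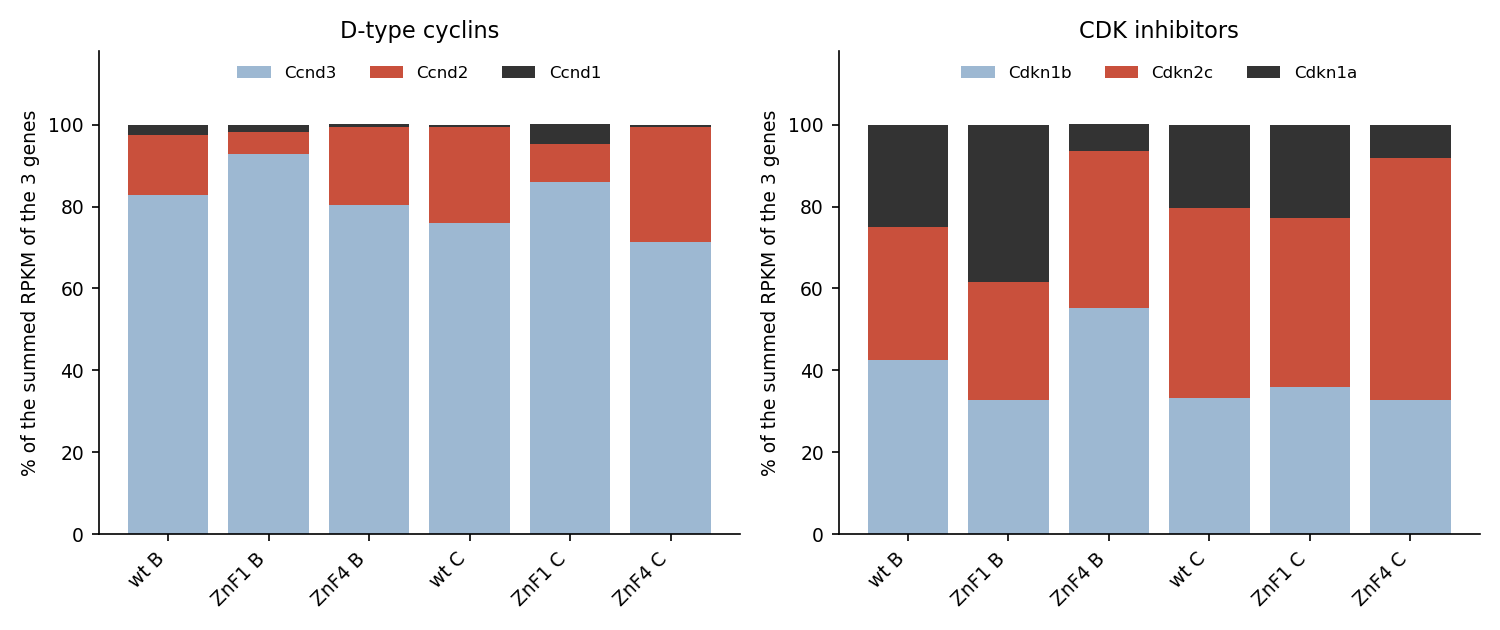
Stacked bars give, for each library, the percentage (vertical axis) of the summed RPKM of 3 genes held by each of them, for D-type cyclins on the left and CDK inhibitors on the right. The Ccnd2 segment is thinnest in the ZnF1 libraries (5.46% and 9.1%), and the Cdkn1a segment in the ZnF4 libraries (6.44% and 8.2%).

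The kinases that D-type cyclins activate differed less. Cdk4 was at 159.8 RPKM in wt, 210.6 in ZnF1 and 124.9 in ZnF4 in fraction B, followed by 219.7, 127.1 and 198.8 for fraction C. The ZnF4 libraries were 1.28-fold and 1.1-fold below wt, while the ZnF1 libraries lay 1.32-fold above it in fraction B and 1.72-fold below it in fraction C. On the B-lineage scale these Cdk4 differences from wt in ZnF4 were -0.862 and -0.704 (log2), and that of ZnF1 in fraction C was -0.13. Cdk6, the less abundant partner kinase, was at 20.7, 20.3 and 15.2 RPKM in fraction B, followed by 30.2, 14.6 and 22.8 for fraction C. In fraction C it was 2.0-fold lower in ZnF1 than in wt, which on the B-lineage scale became a log2 difference of -0.375. The ratio of Cdk4 to Cdk6 stayed between 7.27 and 10.4 in all 6 libraries. Summed D-type cyclin RNA was 1.33 to 1.4 times the summed Cdk4 and Cdk6 RNA in wt and ZnF1 libraries, and 0.945 and 0.988 times in the ZnF4 libraries.

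Cdk4 is a known target of Myc, a driver of growth that binds the E-box, and Myc was low in the ZnF4 mutant, so the promoters of both kinases are shown, with that of Cdkn1a, the member that differed most. RefSeq promoter sequences (build GRCm38.p6) were matched for 7 of the 10 members, namely Ccnd3, Ccne1, Cdk4, Cdk6, Cdkn1a, Cdkn1b and Cdkn2c. In the 250 bases before the start, on both strands, E-box letters CACGTG and the Ikaros core GGGAA are printed in capitals (TTCCC is GGGAA on the other strand). The Cdk4 stretch lies at chr10:127063285-127063534, the Cdk6 stretch at chr5:3343643-3343892 and that of Cdkn1a, at the start of the transcript used, at chr17:29090729-29090978, all on the + strand.
Cdk4: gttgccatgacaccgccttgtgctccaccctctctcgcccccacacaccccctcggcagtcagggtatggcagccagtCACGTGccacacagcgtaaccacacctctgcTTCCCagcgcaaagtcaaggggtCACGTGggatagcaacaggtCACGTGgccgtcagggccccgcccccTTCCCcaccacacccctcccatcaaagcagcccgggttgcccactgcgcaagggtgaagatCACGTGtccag
Cdk6: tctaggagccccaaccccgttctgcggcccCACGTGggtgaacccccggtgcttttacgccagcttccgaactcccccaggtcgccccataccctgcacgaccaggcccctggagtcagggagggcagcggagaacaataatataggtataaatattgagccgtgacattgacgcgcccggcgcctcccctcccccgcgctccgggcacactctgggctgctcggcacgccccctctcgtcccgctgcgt
Cdkn1a: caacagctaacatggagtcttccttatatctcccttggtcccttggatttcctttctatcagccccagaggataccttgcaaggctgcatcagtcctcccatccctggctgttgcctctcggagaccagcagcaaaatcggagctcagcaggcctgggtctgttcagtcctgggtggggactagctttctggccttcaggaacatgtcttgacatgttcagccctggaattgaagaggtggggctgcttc
The Cdk4 window held CACGTG 4 times and GGGAA 2 times, that of Cdk6 held CACGTG 1 time, and that of Cdkn1a held neither. The window of the second Cdkn1a start in the table, that of NM_007669 (chr17:29093519-29093768), held GGGAA 1 time. Of all 32851 promoter windows, 6.02% held CACGTG at least once, 7 windows held it 4 or more times, and 56.2% held GGGAA. The E2F letters TTTCCCGC and TTTGGCGC, held by 0.895% and 0.417% of all windows, were in none of the members' windows. Such matches are a description of letters, and no match says nothing about the factor. Beside them, Myc was at 48.7 RPKM in wt, 25.7 in ZnF1 and 5.5 in ZnF4 in fraction B, followed by 91.7, 22.5 and 11.3 for fraction C. Myc was 7.65-fold and 7.54-fold lower in ZnF4 than in wt. Its part in the Cdk4 values was not tested.

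The E-type cyclins were lowest in the ZnF4 libraries. Ccne1 was at 24.3 RPKM in wt, 35.9 in ZnF1 and 9.6 in ZnF4 in fraction B, followed by 38.1, 30.2 and 21.5 for fraction C. It was 2.39-fold and 1.74-fold below wt in ZnF4. In ZnF1 it was 1.46-fold above wt in fraction B and 1.25-fold below it in fraction C, where the B-lineage scale turned it to 0.316 (log2) above wt. Ccne2, the second cyclin of this kind, was at 26.4, 24.0 and 7.2 RPKM in fraction B, followed by 36.6, 19.1 and 17.1 for fraction C. Its ZnF4 values were 3.34-fold and 2.08-fold below wt, and its ZnF1 values 1.1-fold and 1.87-fold below. A second Ccne2 transcript was at 14.5, 10.4 and 3.8 RPKM in fraction B, followed by 21.0, 8.6 and 7.1 for fraction C. With transcripts summed, Ccne2 in ZnF1 in fraction C was -1.03 (log2) from wt. For the transcripts used, the ratio of Ccne1 to Ccne2 was 0.92 and 1.04 in the wt libraries and between 1.26 and 1.58 in the 4 mutant ones. It is 1 of many ratios that members can form, and wt and mutant libraries also differed in sex.

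Among the inhibitors Cdkn1a differed most. It was at 31.0 RPKM in wt, 58.1 in ZnF1 and 6.9 in ZnF4 in fraction B, followed by 23.5, 28.5 and 10.3 for fraction C. The order ZnF1 above wt above ZnF4 held in both fractions, and both ZnF4 libraries were below all others. The ZnF4 library was 4.05-fold below wt in fraction B and 2.17-fold in fraction C, and the ZnF1 library 1.85-fold and 1.2-fold above it. With libraries brought to equal RPKM sums the ZnF1 difference in fraction C was -0.022 (log2), and on the B-lineage scale 0.909. Between the mutants Cdkn1a was 7.48-fold lower in ZnF4 in fraction B, a value below which 0.731% of genes fell, and 2.61-fold lower in fraction C.

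Cdkn1b was at 52.8 RPKM in wt, 49.6 in ZnF1 and 59.2 in ZnF4 in fraction B, followed by 38.4, 45.1 and 41.3 for fraction C. The genotypes were within 1.19-fold of each other in each fraction, and fraction C was the lower one in every genotype (1.37-fold in wt, 1.1-fold in ZnF1, where it was higher by a log2 of 1.02 on the B-lineage scale, and 1.42-fold in ZnF4). On the B-lineage scale Cdkn1b in fraction C was higher in ZnF1 than in wt by 0.874 (log2), and the difference of ZnF4 from ZnF1 was -1.32. Cdkn2c was at 40.2, 43.5 and 41.0 RPKM in fraction B, followed by 53.3, 51.6 and 74.0 for fraction C. Its highest value was that of ZnF4 in fraction C, 1.38-fold above wt, which on the B-lineage scale was a log2 difference of -0.089. Cdkn1a made up 25.0%, 38.4% and 6.44% of the summed RPKM of the 3 inhibitors in fraction B, followed by 20.4%, 22.8% and 8.2% for fraction C. Of the related inhibitors outside the set, Cdkn2a, Cdkn2b and Cdkn2d were at 1.4 RPKM or less in every library. Cdkn1c, which encodes p57, was at 0.6, 2.2 and 6.3 RPKM in fraction B, followed by 0.5, 0.9 and 3.7 for fraction C, highest in the ZnF4 library of each fraction.

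Set against wt, 8 of the 10 members were lower in the ZnF4 mutant in each fraction, Cdkn1b and Cdkn2c being the exceptions, and all 10 were lower in each fraction on the B-lineage scale. In fraction B 4 members (Ccnd1, Ccne1, Ccne2 and Cdkn1a) were at least 2-fold lower, against 9.81% of all genes compared, and 0 at least 2-fold higher, against 3.7%. In fraction C 2 members (Ccne2 and Cdkn1a) passed 2-fold downward, against 6.12%, and 0 upward, against 3.55%. The same 2 were so in both fractions, as were 4.73% of all genes. The median log2 difference of the members was -0.736 in fraction B and -0.4 in fraction C, beside -0.089 and -0.047 over all genes. On the B-lineage scale all 10 members were lower in each fraction. That scale moved the median of all genes by -0.436 and -0.477, to -0.525 and -0.524, so most genes were lower there too. With it 6 and 4 members were at least 2-fold lower, against 20.5% and 17.1% of all genes.

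In the ZnF1 mutant 1 member, Ccnd2, was at least 2-fold lower than wt in fraction B, against 2.21% of genes (0 were higher by this measure, against 2.07%), and 2 members (Ccnd2 and Cdk6) in fraction C, against 7.39%. With transcripts summed, 3 members were at least 2-fold lower in fraction C, Ccne2 joining them, against 7.45%. Ccnd2 was so in both fractions, as were 0.804% of all genes. In fraction C 1 member, Ccnd1, was at least 2-fold higher, against 12.6% of genes. The members' median was 0.042 in fraction B, the same as that of all genes, and -0.476 in fraction C, beside -0.159. There 7 members were lower than wt, as were 58.8% of all genes. The 7 became 9 with equal RPKM sums and 4 on the B-lineage scale, where the median of all genes moved by 0.596. The comparisons with wt share their wt libraries, so the effects of the 2 mutants are not independent of each other.

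**Figure D3:**
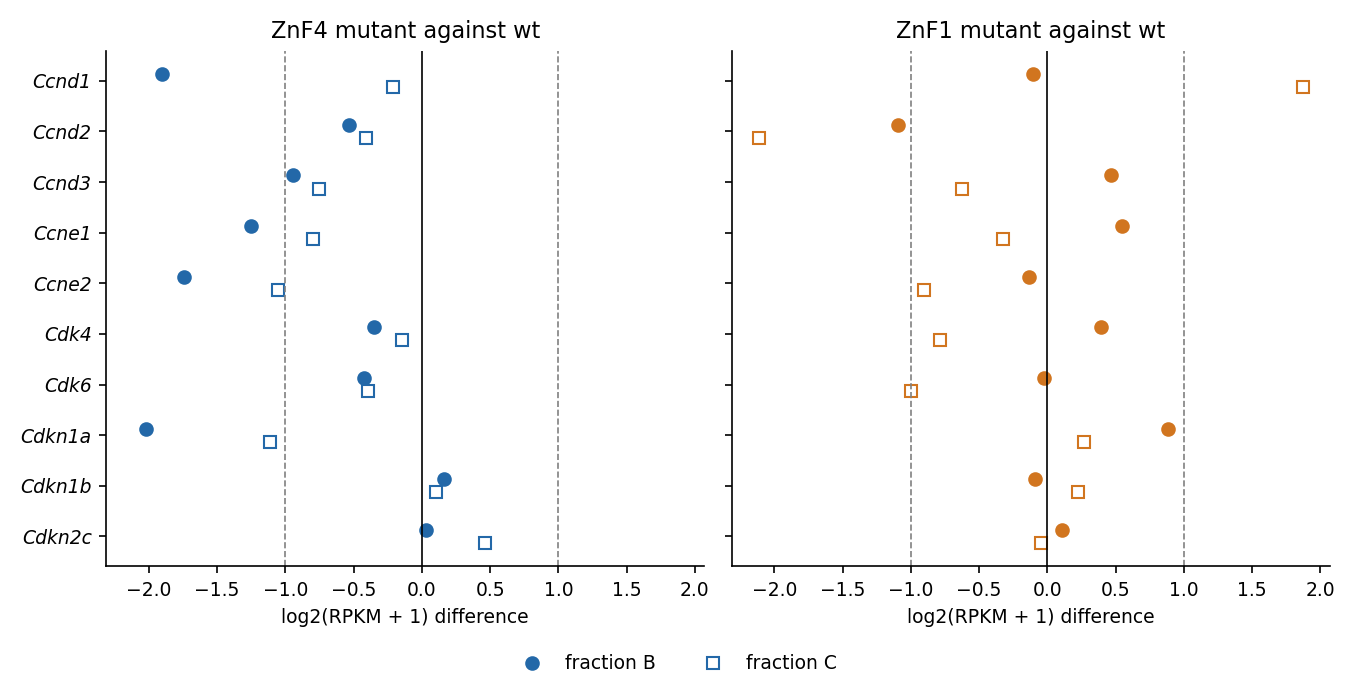
Difference from wt in log2(RPKM + 1) (horizontal axis) for each member (vertical axis) in the ZnF4 mutant (left) and the ZnF1 mutant (right), with filled circles for fraction B, open squares for fraction C and dashed lines at 2-fold. In ZnF4 Ccne2 and Cdkn1a lie beyond the lower line in both fractions, in ZnF1 Ccnd2 does, and several ZnF1 points change side between the fractions.

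Between the mutants, 5 members (Ccnd1, Ccnd3, Ccne1, Ccne2 and Cdkn1a) lay 2-fold or further below ZnF1 in the ZnF4 library of fraction B, against 10.9% of genes, and 0 above it, against 4.95%. In fraction C 2 members (Ccnd1 and Cdkn1a) were lower by this measure, against 14.1%, and 1 member, Ccnd2, was 3.26-fold higher, against 7.41%. Ccnd1 and Cdkn1a were lower by this measure in both fractions, as were 5.45% of genes. The Ccnd2 difference in fraction C was 0.519 (log2) on the B-lineage scale.

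A limma model that added a genotype term and a fraction term was fitted to the 6 libraries. It took the fractions as repeats of a genotype effect and left 2 residual degrees of freedom. For ZnF4 against wt it called 0 of 10 members at an adjusted p under 0.05, against 0.0274% of all genes, and 3 members (Ccne1, Ccne2 and Cdkn1a) had an unadjusted p under 0.05. The estimate for Cdkn1a was -1.57 (log2, SE 0.39, limma adjusted p = 0.175) and that for Ccne2 -1.40 (SE 0.38, limma adjusted p = 0.192), each lower in 2 of 2 fractions. For ZnF1 against wt limma called 0 members, against 0.0274% of genes, and 1, Ccnd2, had an unadjusted p under 0.05 (log2 -1.60, SE 0.33, limma adjusted p = 0.415, lower in 2 of 2 fractions). For ZnF4 against ZnF1 limma called 0 members, against 1.82% of genes, with 4 at an unadjusted p under 0.05. Of these 4, Cdkn1a had the lowest adjusted p (log2 -2.14, SE 0.39, limma adjusted p = 0.077). An unadjusted p under 0.05 was reached by 1930 of all 10943 genes for ZnF4 against wt. The like numbers were 1018 for ZnF1 against wt and 2489 for ZnF4 against ZnF1.

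The number of calls rested on the ZnF1 libraries, also for ZnF4 against wt. Without the ZnF1 library of fraction C, limma called 6 members as lower in ZnF4 than in wt (Ccnd2, Ccnd3, Ccne1, Ccne2, Cdk6 and Cdkn1a), against 31.6% of all genes called and 19.3% called as lower. Without that of fraction B it called the same 6, against 30.8% and 19.1%. When a wt or a ZnF4 library was left out instead, 0 members were called. For ZnF4 against ZnF1 6 members were called without the ZnF1 library of fraction C, against 24.6% of genes, and for ZnF1 against wt 0, against 0.146%, with 5 at an unadjusted p under 0.05. Without the ZnF1 library of fraction B 5 members were called for ZnF4 against ZnF1, against 37.5% of genes, and 5 for ZnF1 against wt, against 37.6%. Each of these fits leaves 1 residual degree of freedom and assumes that the lone ZnF1 library varies like the others.

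The step from fraction B to C was read within each genotype. In wt 7 of 10 members were higher in fraction C, as were 56.7% of all genes, with a median log2 difference of 0.427 beside 0.057. A single member, Ccnd2, was at least 2-fold higher, against 0.338% of genes, and 1 member, Ccnd1, at least 2-fold lower, against 1.01%. In ZnF4 9 of 10 were higher, as were 61.3% of all genes, with a median of 0.611 beside 0.11. In that genotype 3 members (Ccnd2, Ccne1 and Ccne2) were at least 2-fold higher, against 2.76% of genes, and 0 lower, against 0.585%. The counts of 7 and 9 higher members held on each scale tried. In ZnF1 3 of 10 were higher, as were 36.2% of all genes, with a median of -0.278 beside -0.158. That count became 1 with equal RPKM sums and 10 on the B-lineage scale, which moved the median of all genes by 1.075. Unscaled, 1 member, Cdkn1a, was 2.0-fold lower in ZnF1, against 4.16% of genes, with 0 at least 2-fold higher, against 10.1%. Over all genotypes limma called 0 members for C against B, against 0.0% of genes. An unadjusted p under 0.05 was held by 2 members (Ccnd2 and Cdkn2c, both higher in 3 of 3 genotypes), beside 511 of all 10943 genes.

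Genes that act around the members were read from fixed lists, chosen, as were the members, with earlier results of these data known. Of 26 other G1/S genes compared (E2F factors, retinoblastoma family, Cdk2, its partners and SCF components), 20 were lower than wt in ZnF4 in fraction B, as were 55.8% of all genes, and 2 of them at least 2-fold, against 9.81%. Their median was -0.485. In fraction C 15 were lower, as were 5799 of all 10943 genes, with a median of -0.107. On the B-lineage scale 23 of the 26 were lower in each fraction, where the median of all genes was -0.525 and -0.524. Tfdp1, the dimer partner of E2F factors, was 2.49-fold lower in ZnF4 in fraction B (7.6 RPKM beside 20.4), and Cdkn1c was 4.56-fold and 3.13-fold higher in ZnF4. In ZnF1 10 of the 26 were lower in fraction B, beside 43.8% of all genes, but 20 in fraction C, beside 58.8%. On the B-lineage scale these were 18 and 7 of the 26. In fraction C E2f5, at 4.8 RPKM in wt and 1.2 in ZnF1, and E2f3, at 16.5 and 6.5, were furthest below wt (2.64-fold and 2.33-fold). Limma called 0 of the 26 in either comparison with wt. An unadjusted p under 0.05 was held by 5 (ZnF4) and 1 (ZnF1) of them, beside 1930 and 1018 of all 10943 genes.

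Replication genes that E2F factors are known to drive were lower in ZnF4 in 26 of 28 cases in fraction B (median -0.838) and in 25 in fraction C (median -0.346). Pcna, the sliding clamp of DNA polymerases, stood at 9.4 RPKM in ZnF4 beside 21.8 in wt in fraction B, followed by 15.6 beside 29.9 for fraction C, while Tk1, the thymidine kinase, was 1.41-fold and 1.7-fold higher. Mitosis genes were lower in 25 of 25 cases in fraction B (median -0.64) and higher in 21 of 25 in fraction C (median 0.17). On the B-lineage scale the mitosis genes were lower in 25 of 25 cases in fraction C too (median -0.379). The replication genes were lower there in 27 of 28 cases in each fraction. On that scale the median of all genes was -0.525 in fraction B and -0.524 in fraction C. Unscaled, 6111 of all 10943 genes were lower in fraction B and 5799 in fraction C. In ZnF1 in fraction C 27 of 28 replication genes were lower than wt (median -0.826) and 13 of 25 mitosis genes (median -0.057). Of all genes, 58.8% were lower there. On the B-lineage scale the 2 list counts became 15 of 28 and 2 of 25.

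Along the step from B to C in ZnF4, 28 of 28 replication genes and 25 of 25 mitosis genes were higher, as were 61.3% of all genes, and 10 and 24 of them at least 2-fold, against 2.76%. In wt these were also 28 of 28 and 25 of 25, beside 56.7% of all genes, with 0 at least 2-fold in either list. In ZnF1 1 of 28 and 16 of 25 were higher, beside 36.2% of all genes. On the B-lineage scale, which moved the median of all genes by 1.075, 28 of 28 and 25 of 25 were higher in ZnF1. That step includes the library with the high granulocyte and erythroid sums. Limma called 0 genes of these lists in either comparison with wt or for C against B. For ZnF4 against wt 2 replication genes and 0 mitosis genes had an unadjusted p under 0.05, beside 1930 of all 10943 genes. The like numbers were 0 and 0 for ZnF1 against wt, beside 1018, and 1 and 1 for C against B, beside 511.

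**Figure D4:**
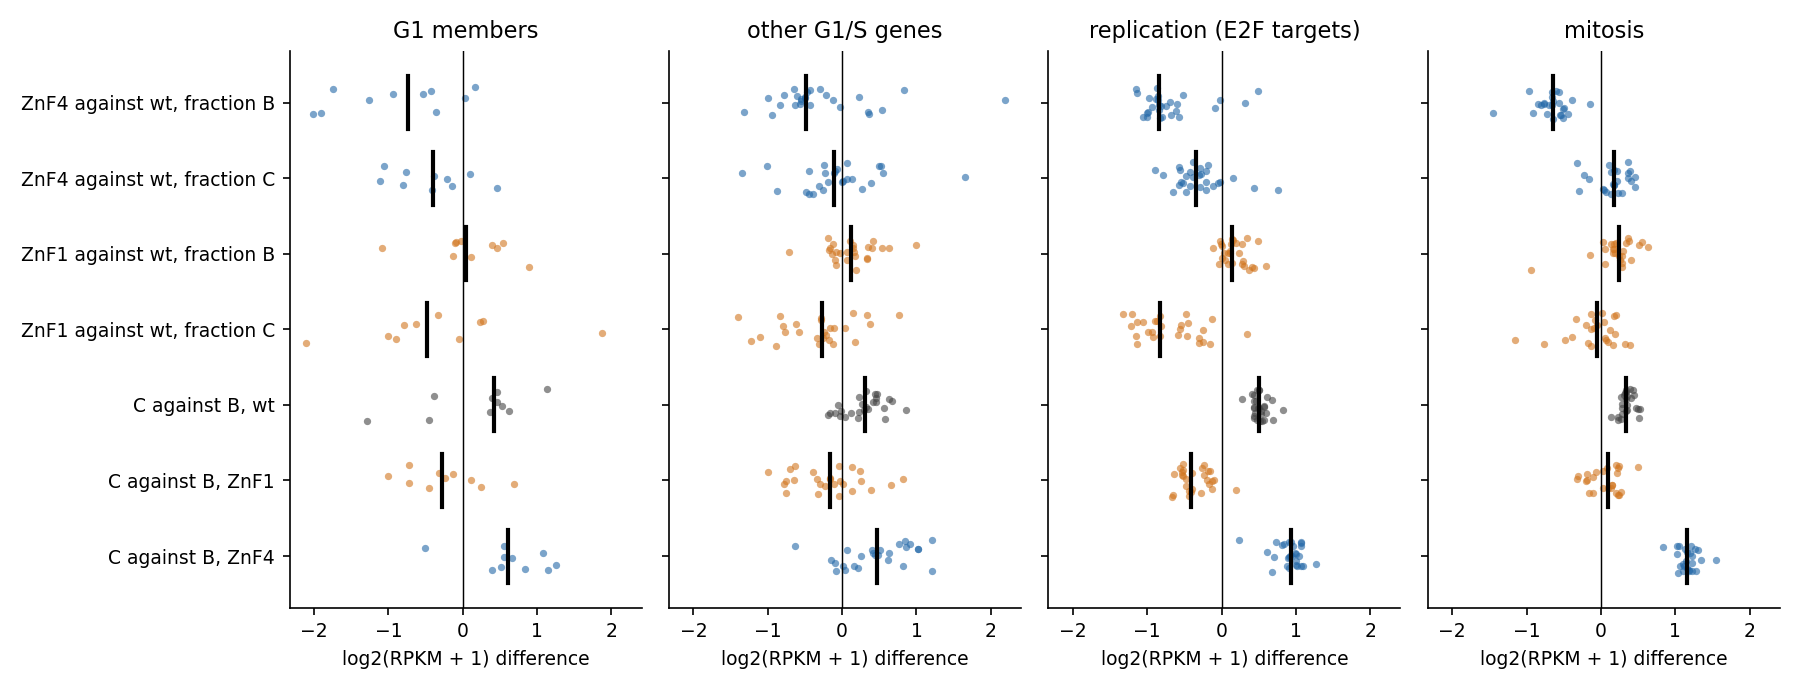
Differences in log2(RPKM + 1) (horizontal axis) of single genes (points, spread vertically for legibility) for the 10 members, 26 other G1/S genes, 28 replication genes and 25 mitosis genes in 7 comparisons (vertical axis), with black bars at medians. Mitosis genes lie below 0 for ZnF4 against wt in fraction B (median -0.64) and mostly above it in fraction C (0.17, but -0.379 on the B-lineage scale), whereas replication genes have negative medians in both (-0.838 and -0.346).

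Of 24 regulators upstream of the members, Myc was furthest below wt in both mutants in both fractions (1.86-fold and 3.94-fold in ZnF1). Jak3, a kinase of the IL-7 receptor, was 2.44-fold and 2.92-fold lower in ZnF4, and the receptor chain Il7r itself, at 110.2 and 96.2 RPKM in wt, stood at 316.6 and 287.5. Trp53, which encodes the main activator of Cdkn1a, was at 52.7, 74.0 and 55.7 RPKM in fraction B, followed by 60.9, 52.8 and 57.5 for fraction C. Mdm2, another target of p53, was 1.41-fold and 1.43-fold higher in ZnF4 than in wt. The B-lineage reference genes stood at 1.43 and 1.48 times wt in these ZnF4 libraries. Of 10 p53 target genes compared besides Cdkn1a, 4 were higher and 6 lower in ZnF4 in fraction B (median -0.056), and 6 and 4 in fraction C (0.166). The part of p53 in the Cdkn1a values was not tested. Mxd1, a partner of Max that opposes Myc, was at 7.2 to 14.4 RPKM in 5 libraries and at 128.8 in the ZnF1 library of fraction C, the one with the high granulocyte and erythroid sums.

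The 3 members with the widest ranges were set against 3286 genes by Pearson correlation of log2(RPKM + 1) over the 6 libraries, which share genotypes and fractions. Closest to Cdkn1a were 1700048O20Rik (r = 0.999), Lfng (0.994), which encodes a glycosyltransferase that modifies Notch receptors, and Plxdc1 (0.993). Lfng was at 24.5, 52.2 and 4.7 RPKM (wt, ZnF1, ZnF4) in B, then 22.8, 27.4 and 7.7 in C. Closest to Ccnd1 were Slfn2 (0.974), Cd4 (0.973), a coreceptor of T cells that plasmacytoid dendritic cells also carry, and Padi2 (0.973), each at its highest in the ZnF1 library of fraction C. Closest to Ccnd2 were Ankle1 (0.987), Xrcc5 (0.986), which encodes Ku80 of DNA end joining, and Snora16a (0.984). Of the genes compared, 87 reached 0.95 with Cdkn1a, 14 with Ccnd1 and 8 with Ccnd2.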

How the data were processed

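RNA-seq of sorted proB cells was used as RPKM values that the authors computed per RefSeq transcript and rounded to 0.1, per the file headers. TopHat, bedtools and build mm9 are named, without roles or versions, per the submitters' processing notes. The treatment of strand, of reads shared by transcripts and of copies elsewhere in the genome is not given in the sources used here. Low values of short transcripts could be whole reads in 29.5% to 50.4% of cases per library, against 23.1% to 41.0% by chance, so reads were not recovered, depth is unknown and no counting interval is given. Of 26532 rows, 1 without a gene name was left out.

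The 26531 transcripts carried 22098 symbols. The transcript with the highest mean stood for its symbol, and the 10943 genes that averaged 1 RPKM or more were compared. Folds are differences of log2(RPKM + 1). Limma 3.58.1 (R 4.3.3, eBayes with trend, two-sided, Benjamini-Hochberg over all genes) was fitted with genotype and fraction as terms and was tested on simulated data. Its p-values measure only the spread between these libraries. Members and lists were chosen with earlier results of these data known. Always named are the members and Ikzf1, then up to 2 genes at each end of a list per comparison, and 3 genes of like pattern (mean of at least 5 RPKM, log2 range of at least 1) for 3 members. Xist, Ddx3y, Igll1, Cdkn2a, Cdkn2b and Cdkn2d were named after their values were seen. Alternatives were a pseudocount of 0.25, summed transcripts, equal RPKM sums, a B-lineage scale (11 genes), no filter and left-out libraries.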

Additional observations from a re-analysis of the deposited data

Results flagged for a closer look

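Some members differed from wt in opposite directions in the 2 fractions, or took steps from B to C in opposite directions in 2 genotypes, by at least 1.25-fold on each side. With 1 library per group this difference was not tested. It is given as the effect in fraction C minus that in fraction B (log2). For ZnF1 against wt it was -1.091 for Ccnd3, -0.87 for Ccne1, -1.181 for Cdk4, -0.973 for Cdk6 and 1.975 for Ccnd1. For ZnF4 against wt it was 1.688 for Ccnd1 and 0.902 for Cdkn1a. For ZnF4 against ZnF1 it was 1.275 for Ccnd3, 1.39 for Cdk4, 1.004 for Cdk6 and 1.519 for Cdkn1a. With all 6 libraries brought to the wt library of fraction B on B-lineage genes, 3 of the 11 kept opposite directions by this measure: Ccnd1 in both comparisons with wt (2.788 for ZnF1 and 1.608 for ZnF4) and Cdkn1a for ZnF4 against wt (0.863). On that scale the ZnF1 values were -0.205 for Ccnd3, -0.005 for Ccne1, -0.297 for Cdk4 and -0.131 for Cdk6. The ZnF1 library of fraction C, which enters 9 of the 11 values, is the one with the high granulocyte and erythroid marker sums.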

How the results depend on the processing

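Of 83 recomputed counts of members, 72 stayed within 1.5 times the count reported, and of 360 recomputed folds 339 stayed on their side of 2-fold. The 339 can include folds under 2-fold that changed sign. An example is Ccne1 for ZnF1 against wt in fraction C, at -0.326 (log2) and at 0.316 on the B-lineage scale. Scaling on B-lineage genes gave 4 members at least 2-fold apart for ZnF4 against wt in fraction C, against 18.6% of all genes. It gave 6 for ZnF4 against ZnF1 in fraction C, against 49.5%. For C against B in ZnF1 it gave 4, against 43.4%, and Cdkn1a turned from lower to higher there (log2 0.139). On that scale limma called 3 members for ZnF4 against ZnF1, against 272 of all 10943 genes. Equal RPKM sums gave 5 members for ZnF1 against wt in fraction C, against 25.2% of genes. In limma, leaving out each library in turn gave 0 to 6 members for ZnF4 against wt, 0 to 5 for ZnF1 against wt, 0 to 6 for ZnF4 against ZnF1 and 0 to 0 for C against B, and a fit of wt and ZnF4 alone called 6. Of all 10943 genes, the fit of wt and ZnF4 alone called 3494. It compares the same wt and ZnF4 libraries as the fits without a ZnF1 library, so it is not a further check. All of these fits leave 1 residual degree of freedom, and a genotype left with 1 library is assumed to vary like the others. A pseudocount of 0.25 and summed transcripts changed none of the 13 counts by over 1.5 times. No paired analysis was possible because each group has 1 library, so no replicate number could serve as a block. The limma model already compares genotypes within fractions. The lists of G1/S, replication and mitosis genes on the B-lineage scale were added after seeing the data.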
